A study of Mus musculus with 2 samples.

Results

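Granins and the receptor-type phosphatase-like proteins of dense-core granules were examined as a set of 8 genes, chosen by name: Chga, Chgb, Scg2, Scg3, Vgf, Ptprn, Ptprn2 and Resp18. All 8 were found among the 55487 genes of the deposited tables, each with 1 identifier. RNA was sequenced from pancreatic islet beta cells of mice 2 months old. The genotype was labelled MytF/F; Myt2F/F; Myt3F/F; RipCre, that is, floxed alleles of Myt1, Myt1l (also called Myt2) and St18 (also called Myt3) together with a transgene in which the rat insulin promoter drives Cre recombinase. The sex was labelled as pooled male and female. Both libraries belong to this 1 mutant group (n = 2). Library 2 is labelled as a duplicate, without a statement on whether it came from other mice. The p-values below set the difference between these libraries against counting error only, and do not measure the spread between replicates. The study asked which genes depend on Myt factors at normal blood glucose. Controls are not analysed here: each value describes mutant cells and says nothing on what the mutation changed.

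Before the results, the labels were compared with the counts. The targeted genes were still counted: Myt1 had 77.6 CPM (reads per 1000000 counted reads) in library 1 and 65.4 in library 2, Myt1l had 44.5 and 39.0, and St18 had 72.7 and 56.5. Reads were counted over whole genes, and without controls these values neither check nor contradict the genotype. Xist, the RNA of the inactive X chromosome in female cells, had 5.01 and 653 CPM, although both libraries carry the same label for sex. Ddx3y, on the Y chromosome, had 102 and 64.2 CPM. Other genes of this chromosome were also lower in library 2: Kdm5d (46.4 and 21.4 CPM), Uty (74.4 and 42.6 CPM) and Eif2s3y (70.4 and 41.7 CPM). Xist was thus higher and these Y-linked genes lower in library 2, so the libraries were not alike in sex-linked reads. The label of duplicate is therefore not read here as a repeat of the same cells. Every difference between the libraries given below stands beside this difference in sex-linked genes, and its part in them was not tested.

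Granins are acidic proteins that aggregate with calcium in the trans-Golgi network and travel with hormones into dense-core granules, where prohormone convertases cut some of them into peptides. Chromogranin A (Chga), chromogranin B (Chgb) and secretogranin II (Scg2) form much of the granule core, secretogranin III (Scg3) tethers chromogranin A to cholesterol-rich granule membrane, and Vgf is a neurotrophin-inducible precursor of several peptides. Ptprn (IA-2, ICA512) and Ptprn2 (IA-2beta, phogrin) span the granule membrane, carry a phosphatase-like domain with little or no activity towards phosphotyrosine, and are autoantigens in type 1 diabetes. Resp18 is a lumenal endocrine protein that resembles the lumenal part of Ptprn, so it is not itself a membrane protein.

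The 8 genes together took 3.36% (library 1) and 3.22% (library 2) of the counted reads, a mean of 3.29% ± 0.0995 (SD, n = 2). The 5 granins accounted for 3.12% ± 0.0916 of all reads, and Ptprn, Ptprn2 and Resp18 for 0.167% ± 0.00791. Chga, Chgb and Scg2 carried most of this, at 3.06% and 2.91% of all reads. For every 100 reads of Ins1 and Ins2, the insulin genes, there were 19.7 granin reads in library 1 and 18.6 in library 2. On the TPM scale, which divides reads by gene length, granins stood at 8.86 and 8.43 per 100 of insulin. Length-scaled Ins2 exceeded Chga 22.9-fold in library 1 and 20.6-fold in library 2, against 10.9-fold and 9.79-fold in reads. These TPM comparisons with insulin depend on the gene length used, and no other length was tried for the insulin genes.

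**Figure D1:**
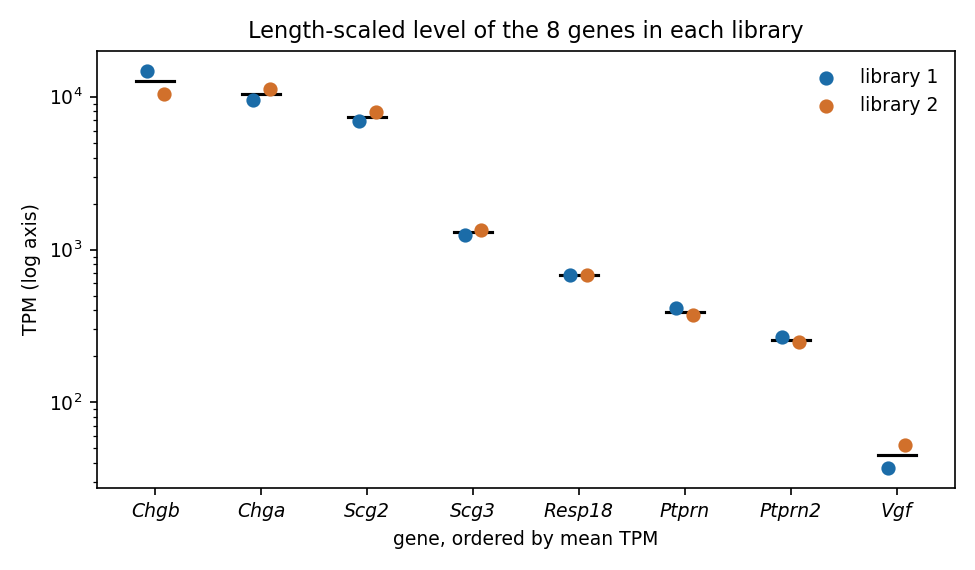
Points give the TPM of each gene in library 1 and library 2 on a log axis, and black lines give the mean of both. Levels run from about 12627 TPM for Chgb to 45.1 TPM for Vgf, and Chgb and Chga change places between the libraries.

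Chgb was the granin with the highest mean level. It had 14725 CPM in library 1, with an exact 95% binomial interval of 14692 to 14759, and 10514 CPM in library 2 (10482 to 10546). In TPM it stood at 14806 and 10449, a mean of 12627 ± 3081 (SD, n = 2). Library 1 was the higher, and only 3 genes in library 1 had a higher TPM than Chgb, against 6 in library 2, where it ranked 7.

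Chga had 9516 CPM in library 1 (9489 to 9543) and 11329 CPM in library 2 (11296 to 11362), or 9513 and 11193 TPM, with a mean of 10353 ± 1188 TPM. Library 2 was the higher, the opposite of Chgb. Scg2, whose product is the precursor of secretoneurin, had 6327 and 7298 CPM, or 6931 and 7901 TPM, with a mean of 7416 ± 686 TPM. It ranked 8 among all genes by TPM in each library.

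Scg3 stood well under these, with 1236 and 1351 CPM, or 1244 and 1344 TPM, a mean of 1294 ± 71.0 TPM. Its rank by TPM was 36 in library 1 and 35 in library 2. Vgf was the lowest of the 8 genes, with 40.2 CPM in library 1 (38.5 to 42.0) and 57.9 CPM in library 2 (55.5 to 60.3). Its mean was 45.1 ± 11.2 TPM, at rank 3142 in library 1 and 2030 in library 2. Length-scaled Scg3 exceeded Vgf 33.4-fold and 25.3-fold in libraries 1 and 2, and Chga exceeded it 255-fold and 211-fold. Granin levels thus ran from among the most abundant transcripts in these cells to one of moderate abundance.

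Resp18 was the highest of the other 3 genes per length and differed least between the libraries. It had 256 and 257 CPM, or 682 and 677 TPM, a mean of 680 ± 3.52 TPM. Ptprn had 639 CPM in library 1 (632 to 646) and 579 CPM in library 2 (572 to 587), or 414 and 371 TPM, with a mean of 393 ± 30.3 TPM. Ptprn2 had more reads, 835 CPM (827 to 843) and 781 CPM (773 to 790), but a lower length-scaled level, 267 and 247 TPM, with a mean of 257 ± 14.2 TPM. By TPM, Resp18 ranked 73 and 69 among all genes, Ptprn 132 and 153, and Ptprn2 236 and 281.

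**Figure D2:**
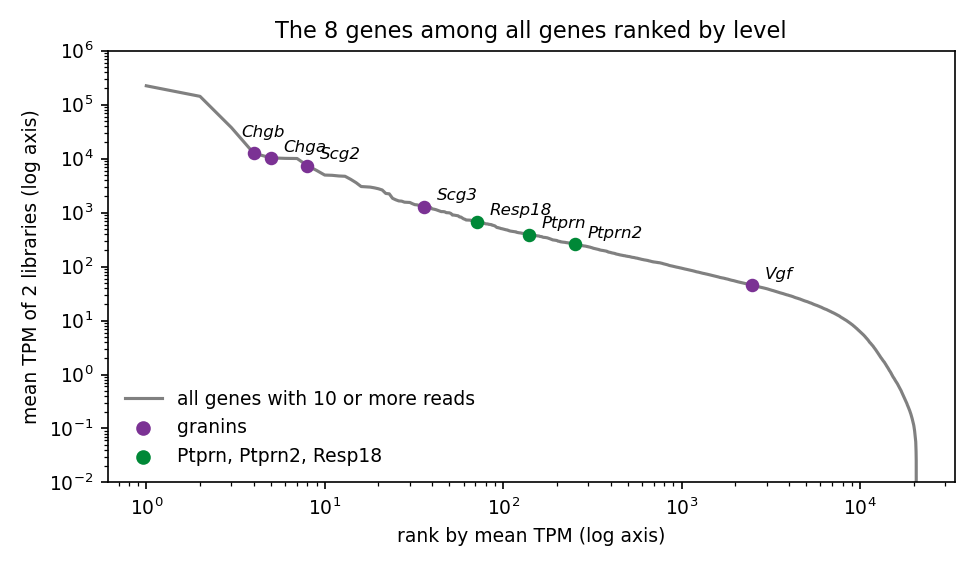
The grey line ranks the 20681 genes with 10 or more reads summed by mean TPM, both axes being logarithmic, and points mark the 5 granins and the other 3 genes. Chgb, Chga and Scg2 sit at the top end of the curve, while Vgf lies far down the curve, at ranks 3142 and 2030 in the single libraries.

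The genes nearest in level to each of the 8, by the distance of log2(TPM + 1) over both libraries, were sought among the 13955 genes that averaged at least 1 CPM, and came from many functions. Nearest to Chga were the mitochondrial genes mt-Co1 (9504 and 10749 TPM, distance 0.058) and mt-Cytb (distance 0.095). The same genes were nearest to Chgb, but at distances of 0.62 and 0.64, so no gene matched its level closely. Scg2 also had no close match, the nearest being mt-Nd1 at 0.41 and mt-Cytb at 0.63. Scg3 lay beside Junb (0.021), a component of AP-1, and the chaperone gene Calr (0.045). Vgf lay beside Scd2 (0.043) and Bckdhb (0.049), Ptprn beside Rap1b (0.029) and Eif1 (0.040), Ptprn2 beside Fkbp9 (0.016) and Pcbd1 (0.030), and Resp18 beside Ddost (0.044) and Gadd45g (0.081). With 2 libraries of 1 group, this likeness is one of level only.

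The order by mean TPM was Chgb, Chga, Scg2, Scg3, Resp18, Ptprn, Ptprn2 and Vgf. Of the 28 pairs among the 8 genes, 27 had the same order in both libraries. The exception was Chgb and Chga: Chgb was 1.56-fold higher than Chga in library 1 (95% interval 1.55 to 1.56) and lower in library 2, at 0.933 times Chga (0.930 to 0.937), so these neighbours did not differ beyond their spread. The mean log2 ratio of Chgb over Chga was 0.27 ± 0.52 (SD, n = 2). Chga exceeded Scg2 1.37-fold and 1.42-fold, and Scg2 exceeded Scg3 5.57-fold and 5.88-fold. Scg3 exceeded Resp18 1.82-fold and 1.98-fold, and Resp18 exceeded Ptprn 1.65-fold and 1.83-fold. Ptprn exceeded Ptprn2 1.55-fold in library 1 (1.53 to 1.57) and 1.5-fold in library 2 (1.47 to 1.53), and Ptprn2 exceeded Vgf 7.18-fold and 4.67-fold. In each of these 6 neighbouring pairs the 95% interval stayed on the same side of 1 in both libraries. The intervals cover counting error only.

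The place of Ptprn2 in this order depends on the gene length used. Deposited TPM values divide by the merged exons of all annotated transcripts, which for Ptprn2 sum to 8602 bases, whereas its single coding transcript in GENCODE M21 has 3201. This ratio of 2.69 compares with a median of 1.36 over 12142 detected coding genes, 10.7% of which had a ratio as large. For Ptprn the lengths are 4249 and 3554 bases, and for Resp18 1032 and 748. Per kilobase of the longest coding transcript, Ptprn2 stood at 252 ± 11.8 CPM and Ptprn at 171 ± 11.8 CPM (SD, n = 2). The log2 ratio of Ptprn over Ptprn2 then turned from 0.61 ± 0.03 to −0.56 ± 0.03, and without any length scaling it was −0.41 ± 0.03. Resp18 was above both per kilobase of coding transcript, at 342 ± 1.06 CPM. The counts do not separate transcripts, so which length applies was not tested.

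**Figure D3:**
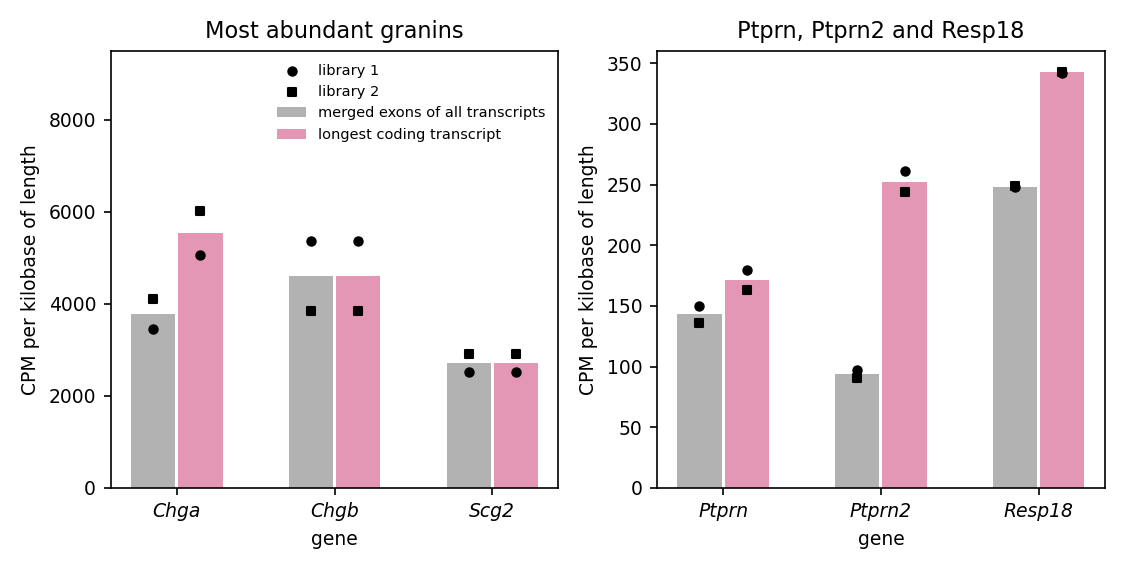
Bars give the mean CPM per kilobase of 2 libraries, with length taken as the merged exons (grey) or as the longest coding transcript (pink), and points give each library. Ptprn2 lies under Ptprn with merged exons (94.0 against 143) and above it with the coding transcript (252 against 171), and Chga passes Chgb in the mean (5535 against 4606).

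The top of the order shifts in the same way. Chgb has 1 annotated transcript, of 2740 bases. The merged exons of Chga sum to 2756 bases over 3 transcripts, of which 1 is coding and has 1883. With the coding length, Chga had 5535 ± 681 and Chgb 4606 ± 1087 CPM per kilobase, and the log2 ratio of Chgb over Chga became −0.28 ± 0.52. The spread between the libraries exceeded this difference under either length.

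Of the 8 genes, 0 passed the threshold for a difference between the libraries, which was an adjusted p under 0.05 and a ratio of 2-fold or more. The background for this call was 4.09% of the 20681 genes tested (1.83% higher in library 2 and 2.26% higher in library 1). Among well-counted genes such calls were rarer: 2 higher in library 2 and 1 higher in library 1, of 687 that averaged at least 200 CPM. All of the 8 genes but Vgf are in this class, so their lack of calls does not set them apart. The test was an exact two-sided binomial test of each gene's reads against the library totals, with Benjamini-Hochberg adjustment over all genes tested, and it compares the reads of these libraries, not conditions. With no fold threshold, 7 of the 8 passed (background 31.9%): 4 were higher in library 2 (background 13.2%) and 3 higher in library 1 (background 18.7%). Of the 687 genes that averaged at least 200 CPM, 262 were higher in library 2 and 290 in library 1. The median log2 ratio of the 8 genes, library 2 over library 1, was 0.07, beside −0.04 over all genes tested.

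Vgf and Chgb had the widest ratios, in opposite directions. Vgf was 1.44-fold higher in library 2, a log2 ratio of 0.53 with an adjusted p of 4.66e-31 in the exact binomial test. Among the 3969 genes that averaged 30 to 100 CPM, 144 (3.63%) had an absolute ratio as wide, a class not set in advance. Chgb was 1.40-fold higher in library 1, a log2 ratio of −0.49, with a p too small to be computed as other than 0. Among those 687 genes, 17 (2.47%) had an absolute ratio as wide as that of Chgb, a class of genes set after its value was seen. Chga, Scg2 and Scg3 were higher in library 2, with log2 ratios of 0.25, 0.21 and 0.13, the last with an adjusted p of 2.03e-49 in the same test. The granins thus did not move as a block: Chgb alone was lower in library 2, and it took 43.9% of the reads of the 8 genes in library 1 and 32.7% in library 2, while Chga took 28.3% and 35.2%.

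Ptprn and Ptprn2 were slightly lower in library 2, with log2 ratios of −0.14 (adjusted p = 6.45e-28 in the exact binomial test) and −0.10 (adjusted p = 2.35e-17). Resp18, at a log2 ratio of 0.01, did not pass (adjusted p = 0.897 in the exact binomial test), and its direction turned in TPM, at 682 in library 1 and 677 in library 2. The ratio of Ptprn to Ptprn2 was thus nearly the same in both libraries, 1.55 and 1.5 in TPM, although each gene differed between them.

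**Figure D4:**
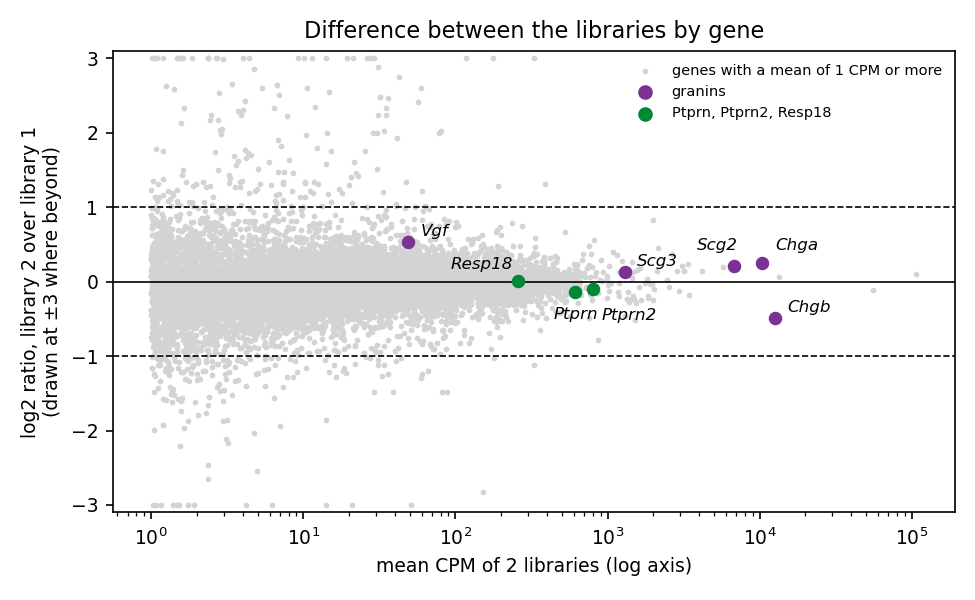
Each point is a gene, with its mean CPM on a log axis and its log2 ratio of library 2 over library 1, and dashed lines mark 2-fold. All 8 genes lie between the dashed lines, Vgf highest at 0.53 and Chgb lowest at −0.49.

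These differences stand beside others between the libraries. Library 1 held 50121771 and library 2 held 39003197 counted reads, and counts over the 20681 genes differed beyond sampling noise (chi-square per degree of freedom 28.6, edgeR's common biological coefficient of variation 0.183). Beta-cell markers were abundant in both (9 of 9 detected at 1 CPM or more in each library), with the glucose transporter gene Slc2a2 at 885 and 632 CPM and Ucn3, a maturity marker, at 238 and 296 CPM. Somatostatin (Sst) of delta cells was at 1515 and 1100 CPM, glucagon (Gcg) of alpha cells at 462 and 330 CPM and pancreatic polypeptide (Ppy) at 632 and 879 CPM. All alpha markers summed to 1358 and 1124 CPM (5 of 6 detected), delta markers to 1653 and 1224 CPM (4 of 4) and PP markers to 979 and 1215 CPM (3 of 3). Beside Ppy, the PP markers Pyy and Tspan8 were at 343 and 332 CPM and at 3.93 and 4.03 CPM. Acinar markers summed to 102 and 472 CPM (7 of 8 detected). Duct markers summed to 56.8 and 64.5 CPM (3 of 4 detected) and immune markers to 52.6 and 44.2 CPM (2 of 5). Glial markers summed to 26.7 and 20.02 CPM (2 of 4), endothelial markers to 13.5 and 10.5 CPM (4 of 5) and mesenchymal markers to 10.1 and 6.51 CPM (3 of 4), and the glial gene S100b was at 0 reads in library 2. Chga and other genes of the set are also known from alpha, delta and PP cells, and the part of these cells in the levels and in the differences between the libraries was not tested. In bulk samples, fewer cells of a type and less RNA per cell cannot be told apart.

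Promoter sequences were available from RefSeq (GRCm38.p6) for 7 of the 8 genes, in windows from 250 bases before to 50 after each annotated start. Vgf had none in the table. Granin promoters are known for a cAMP response element (CRE), the site of CREB-family factors, whose palindrome is TGACGTCA. The palindrome was found in Chgb and Scg2, 72 and 68 bases before the start, in 2 of the 7 genes with a promoter, beside 2.03% of 27025 genes in the table and 3.68% of the 10257 detected at 1 CPM or more. Its core TGACG, searched on both strands and contained in the palindrome, was found in 5 of the 7, adding Chga, Scg3 and Ptprn, beside 23.0% of all genes and 35.7% of detected genes. Among 36 genes of the other granule lists, 20 held the core and 3 the palindrome (Clcn3, Pcsk1 and Slc18a2). The windows of 30 bases around the matches are shown on the gene's strand because they set the palindromes beside the cores that differ from them. Capitals mark the match, and CGTCA is the core on the opposite strand.
Chgb, chr2:132781559-132781588, plus strand: gggctgctccgTGACGTCAgggctgagcga
Scg2, chr1:79440076-79440105, minus strand: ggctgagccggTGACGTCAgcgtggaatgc
Chga, chr12:102554885-102554914, plus strand: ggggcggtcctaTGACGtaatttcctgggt
Scg3, chr9:75684069-75684098, minus strand: gcgctgggtcgcTGACGccatcctcacgcc
Ptprn, chr1:75264308-75264337, minus strand: cttacgccagtaTGACGcaaataggcataa
Ptprn, chr1:75264271-75264300, minus strand: gggtggagatgtCGTCAttgcacgcctgca

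The windows of Chgb and Scg2 lie in exons of GENCODE M21, whose transcripts start further upstream, those of Ptprn lie in an intron of it, and those of Chga and Scg3 lie before its gene start. No match to TGACG lay in the windows of Ptprn2 and Resp18, which says only that these letters are absent there. By mean TPM, the palindrome was in the highest and the third of the 8 genes and not in Chga, at rank 2 of them. The core TGACG was also in Chga, in Scg3 at rank 4 and in Ptprn at rank 6. It was not in Resp18 and Ptprn2, at ranks 5 and 7. Whether matches follow the level was not tested. A TATAAA box was found in Chga alone (15.7% of all genes, 8.51% of detected genes). It began at position 6 after the RefSeq start used for the windows, and its near end lay 18 bases before the GENCODE start. The GC box GGGCGG was in Chga, Chgb, Ptprn and Ptprn2 (38.2% of all genes, 68.7% of detected genes).

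Myt proteins are known to bind the core AAGTT, and since the mutant mice carry floxed Myt genes it was searched in the same windows on both strands. It was found in 4 of the 7 genes, Chga, Scg3, Ptprn and Resp18, beside 42.8% of all genes and 35.7% of detected genes, and in 9 of the 36 other granule genes. For Ptprn, this match and the GC box lay in a GENCODE exon, in the window of another annotated start than its TGACG matches. The longer form AAAGTTT was found in 0 of the 7 and in 5.44% of all genes. Resp18 held the core at 2 places, shown here with the match in capitals, as AAGTT or, on the opposite strand, AACTT, beside those of Chga, Scg3 and Ptprn. These are matches of letters in a short window, not binding sites, and no binding was measured.
Resp18, chr1:75278632-75278661, minus strand: accaaacacatgAAGTTggttccatttcca
Resp18, chr1:75278483-75278512, minus strand: aagaggatggctAACTTgggtaagcagctg
Chga, chr12:102554731-102554760, plus strand: cggacgcacagcAAGTTggcaggtggagtt
Scg3, chr9:75684257-75684286, minus strand: tgtctccttgacAAGTTcacgggtagagag
Ptprn, chr1:75263976-75264005, minus strand: cggtcaggagaaAACTTgatgggggcgggg

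The genes differ in structure (GRCm38, GENCODE M21). Scg2 (ENSMUSG00000050711) lies on the minus strand of chromosome 1, from 79434669 to 79440120, and Vgf (ENSMUSG00000037428) on the plus strand of chromosome 5, from 137026392 to 137033351. In both, 1 exon holds the whole coding sequence of 1851 bases, stop codon not counted. Chgb (ENSMUSG00000027350), on the plus strand of chromosome 2 from 132781278 to 132795079, has 5 coding exons, 1 of which holds 87.0% of its 2031 coding bases. In Chga (ENSMUSG00000021194), on the plus strand of chromosome 12 from 102554969 to 102565028, the coding sequence of 1389 bases is split over 8 exons, the longest with 34.3%. Scg3 (ENSMUSG00000032181), on the minus strand of chromosome 9 from 75643189 to 75684056, has 12 coding exons and no large one, the longest holding 15.3%.

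Ptprn (ENSMUSG00000026204) lies on the minus strand of chromosome 1 from 75247027 to 75264502, and Ptprn2 (ENSMUSG00000056553) on the plus strand of chromosome 12 from 116485720 to 117276849. Each has 23 coding exons, with similar coding lengths of 2943 and 3003 bases, but the Ptprn2 gene spans 791130 bases against 17476. Resp18 (ENSMUSG00000033061) is the neighbour of Ptprn, on chromosome 1 from 75272199 to 75278415 on the same strand. The gap between them is 7696 bases and holds 0 annotated genes. These neighbours differ 1.65-fold and 1.83-fold in TPM in favour of Resp18, and a log2 ratio between libraries of −0.14 in Ptprn stands beside 0.01 in Resp18.

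Sequence shared with other loci was scarce. Words of 50 bases from the transcripts of these genes occurred in other genes for 2.15% of Ptprn words, all in its antisense gene Gm28294, and for 0.0740% of Chga words, and for none of the words of the other 6 genes. Gm28294 overlaps 189 exon bases of Ptprn and had 37 and 57 reads, against 32004 and 22587 of Ptprn. Gm28902 overlaps 40 exon bases of Resp18 in antisense and had 19 and 10 reads, against 12810 and 10012. The libraries do not mark strand, so antisense reads cannot be told apart, and how reads over shared bases were assigned is not stated. The counts of these antisense genes were small beside those of Ptprn and Resp18, which sets no limit on antisense reads over the shared bases. The microRNA gene Mir153 lies in an intron of Ptprn2 and had 1 and 3 reads, in libraries not made for small RNA. This is under the 10 reads summed that the test between the libraries required.

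Other genes of the dense-core granule were set beside the 8 genes, whose median level was 987 TPM. The granin-like chaperones Scg5 (7B2, which binds the convertase Pcsk2) and Pcsk1n (proSAAS, an inhibitor of Pcsk1) had means of 1562 ± 3.67 and 652 ± 47.6 TPM (SD, n = 2), beside 1294 for Scg3 and 680 for Resp18. Prohormone processing genes had a median of 108 TPM, with Cpe, the carboxypeptidase that trims convertase products, highest at 3586 ± 347 TPM. Qpct was the lowest, at 0.778 and 1.82 CPM, and Furin was the lowest detected in both libraries, at 26.6 ± 0.368 TPM. Granule cargo ran from Ins2 at 224080 ± 8622 TPM to Nucb2 at 382 ± 8.58 TPM, and Npy and Tac1 were under 1 CPM in both libraries. Among granule transporters and pumps (median 68.3 TPM), the zinc transporter gene Slc30a8 led with 731 ± 102 TPM, and the monoamine transporter gene Slc18a2 was the lowest at 1.16 ± 0.105 TPM.

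Genes of granule biogenesis and motility had lower medians than the 8 genes. The 14 biogenesis genes, all detected, had a median of 40.0 TPM and ran from Arf1 at 480 ± 0.286 TPM to the SNARE gene Vti1a at 7.43 ± 0.446 TPM. The 10 motility and tethering genes, also all detected, had a median of 66.1 TPM. Their highest was Sytl4, a Rab27a effector on granules, at 197 ± 10.3 TPM, and their lowest was Myrip at 1.92 ± 0.252 TPM. Of the 8 genes, Vgf alone, at 45.1 TPM, lay under the median of the motility genes.

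**Figure D5:**
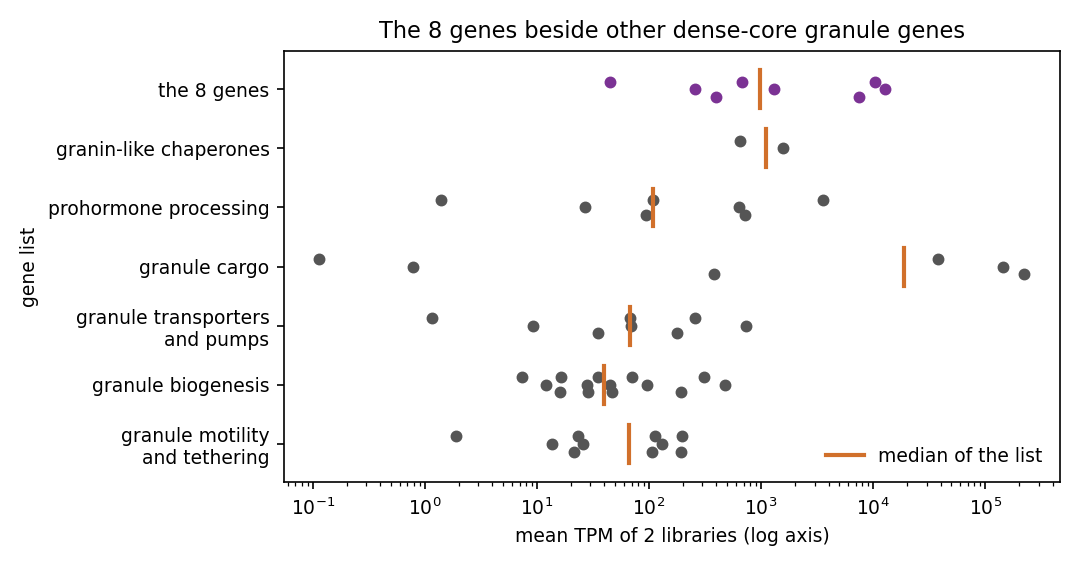
Each point is the mean TPM of a gene over 2 libraries on a log axis, by gene list, and orange lines give list medians. The 8 genes have a median of 987 TPM, above the medians of processing (108), transporters (68.3), biogenesis (40.0) and motility genes (66.1). It is under those of the granin-like chaperones (1107) and of granule cargo (19008). The cargo median falls in a wide gap between Iapp (37634) and Nucb2 (382), and cargo genes run down to 0.114 TPM.

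In the exact binomial test with no fold threshold, genes of the granule lists passed in both directions. Over all genes tested, 13.2% were higher and 18.7% lower in library 2, and of the 1918 genes that averaged at least 100 CPM, 601 were higher and 752 lower, so a list of well-counted genes with many calls is not set apart by them. Prohormone processing genes were lower in library 2 for 5 of 7 and higher for 1, Qpct, which at a log2 ratio of 1.22 was also the only gene of these lists that passed with the 2-fold threshold. Pcsk1 and Pcsk2 had log2 ratios of −0.23 and −0.22, next to −0.49 for Chgb. Motility and tethering genes were higher in library 2 for 6 of 10 and lower for 1, Vamp2, beside the same shares. Biogenesis genes passed for 6 of 14, 2 higher and 4 lower in library 2, and transporters and pumps for 4 of 8, 2 in each direction. Granule cargo passed for 3 of 6, with Ins2 and Iapp higher and Ins1 lower in library 2, and 1 of the 2 chaperones, Pcsk1n, was lower.

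Factors known to act on these genes were measured as well. Ptbp1, an RNA-binding protein that stabilizes granule mRNAs including that of Ptprn, had 196 and 199 CPM. Rest, the repressor of neuronal and endocrine genes with targets among the granins, had 1.84 and 2.03 CPM, near the detection limit. Of factors that bind CREs, Creb1 had 63.6 and 63.3 CPM, Atf2 128 and 120 CPM and Crem 49.0 and 66.0 CPM, the last with a log2 ratio of 0.43 towards library 2 (adjusted p = 1.53e-24 in the exact binomial test). Egr1, an immediate-early gene, had 1986 and 1730 CPM. The endocrine factors Insm1 and Neurod1 had 382 and 336 CPM and 320 and 276 CPM. Stat5a had 17.5 and 16.7 CPM and Stat5b had 110 and 101 CPM. Of the 10 factors, 1 was higher and 5 were lower in library 2 with no fold threshold (13.2% and 18.7% over all genes tested), and 0 passed at 2-fold (4.09% over all genes tested).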

How the data were processed

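Raw read counts, CPM and TPM values per gene were deposited by the authors for each library, per the file headers. Per the submitters' processing notes, the tools included featureCounts 2.0.2, STAR 2.7.8a and cutadapt 2.10, with GRCm38.p6 as build; their settings are not stated. CPM as deposited equals the count over the library total. TPM as deposited divides by a length within 1% of the GENCODE M21 merged exons for 98.3% of 16229 genes with more than 20 reads. Libraries came from sorted cells by a TruSeq DNA kit, per the labels' protocols.

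From the counts, exact Clopper-Pearson 95% intervals (scipy 1.17.1) and exact binomial tests with 0.5 read added in ratios were computed over genes with 10 or more reads summed, and TMM factors (edgeR 4.0.16) and size factors (DESeq2 1.42.0) served as alternatives. On simulated data of 20681 genes the test recovered 200 of 200 genes changed 3-fold, with 1 false call. The simulated counts held sampling noise only, and the changed genes had 200 or more reads summed. The real libraries differed beyond such noise (chi-square per degree of freedom 28.6), so the false-call figure does not carry over to them. A count of 0 allows up to 3 reads, or 0.0599 and 0.0769 CPM. A test between groups could not be fitted with 1 group. Planned protein features were not analysed here. The text names the 8 genes, the 2 nearest in level to each, the extremes and undetected members of each granule list, all listed regulators and genes overlapping exons of the 8; markers, targeted and sex-linked genes, other list genes and Mir153 were named after their values were seen. The genes and lists were chosen with earlier results of these data known.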

Additional observations from a re-analysis of the deposited data

How the results depend on the processing

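Ratios between genes turned with the length scaling. Without length scaling, the log2 ratio of Ptprn over Ptprn2 was −0.41 in place of 0.61, and that of Ptprn over Resp18 was 1.25 in place of −0.79. With the length of the longest coding transcript, an alternative chosen after seeing the data, they were −0.56 and −1.001, and Chgb over Chga was −0.28 in place of 0.27. Leaving out 1 library gave −0.10 (library 2 alone) to 0.64 (library 1 alone) for Chgb over Chga. Scg2 over Scg3 kept its direction, at 2.52, 2.39 without length scaling and 2.32 with the coding transcript. Of the 28 pairs of genes, 25 kept their order without length scaling and 26 with the coding transcript.

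Excluding insulin reads from the totals gave shares of 3.73% for the 5 granins and 0.200% for Ptprn, Ptprn2 and Resp18, and the share of TPM gave 0.133% for the latter. Granin TPM per 100 insulin TPM was 8.65, against 19.2 in reads. The median log2 ratio of the 8 genes between the libraries, 0.07, was 0.11 with TMM and with size factors (0.110 and 0.111), 0.073 without insulin reads and 0.051 in TPM, and each of the 8 genes kept its direction with TMM, size factors and totals without insulin. In TPM, Resp18 turned, at 682 and 677 against 256 and 257 CPM. The count of the 8 called between the libraries was 0 under TMM, size factors, totals without insulin, no filter, a filter of 100 reads and a 1.5-fold threshold, and 7 with no fold threshold. Over all genes the calls were 845, with 1604 at 1.5-fold, 6606 with no fold threshold and 335 with the filter of 100 reads. Leaving out a library leaves no difference between libraries to test. No paired analysis was possible because there is 1 group. Depth limits Vgf most among the 8, with 2015 and 2258 reads.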
